A study of Mus musculus with 3 samples.

Results

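Mitochondrial protein import and quality control is represented here by 36 mouse genes, chosen by name for their roles, and by the ChIP-seq peaks of the nuclear receptor ESRRA near them. The genes were chosen with earlier results of these data known. A peak was linked to a gene when its midpoint lay within 30 kb of any annotated start site of that gene (GENCODE M1, build mm9). All 36 genes were found in the annotation. Of these, 8 had at least 1 linked peak and 28 had none, and 11 of the 1639 peaks were linked.

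ESRRA, the estrogen-related receptor α, has as its preferred DNA site TCAAGGTCA, the 7-base half-site AAGGTCA with TC in front of it. Its binding was mapped by ChIP-seq in villus cells from the duodenum of wild-type (WT) mice after cross-linking with the protein cross-linker DSG and formaldehyde. The mice, which the study's methods give as C57BL/6 mice on regular chow, gave 2 libraries with the ESRRA antibody and 1 of input chromatin. Both ChIP libraries were merged by the authors before peaks were called, and the single list of 1639 peaks, each 601 bp wide, was the measurement used here. No value has a replicate error, groups could not be compared, and a strong peak counted the same as a weak one. The villus label could not be checked against marker genes, because no expression data were analysed here.

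Nearly all mitochondrial proteins are made in the cytosol and must be carried across one or both mitochondrial membranes. Most of the Tomm proteins build the entry gate of the outer membrane, with its pore and receptors. Samm50 inserts barrel-shaped proteins into that membrane, and the small Timm proteins escort hydrophobic proteins across the intermembrane space. Inner membrane translocases and a motor built on the chaperone Hspa9 then pull proteins into the matrix, where peptidases cut off the targeting sequence, chaperonins fold the product, and proteases with the prohibitins as partners remove what is damaged. In other tissues ESRRA is best known for binding genes of energy metabolism.

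Of the 7 linked peaks that held an ESRR half-site, the sequences of 4 are shown first, because they carry the DNA letters to which the receptor is known to bind. The other 3, which are 2 peaks at Hspa9 and 1 at Afg3l2, each held TCAAGGTCA and are described below without their sequence. Each is from the mm9 plus strand, read 5′ to 3′, with the half-site and the 2 bases before it in capitals. A half-site on the minus strand therefore appears reversed, with TGACCTT in place of AAGGTCA. Stretches that fell in an untranslated exon were kept to 29 bases.
Timm10, chr2:84667547-84667575, untranslated exon of Timm10: acatcgcgagTGACCTTGAgctggacact
Timm8b, chr9:50411900-50411928, untranslated exon of the neighbouring gene Sdhd: tttcgagggcTCAAGGTCActctacaacc
Samm50, chr15:84022899-84023016, intron of Samm50: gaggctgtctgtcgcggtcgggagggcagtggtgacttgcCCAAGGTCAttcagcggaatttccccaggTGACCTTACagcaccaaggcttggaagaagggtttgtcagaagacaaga
Phb2, chr6:124667814-124667950, intron of Gm15884 beyond the end of Phb2, its last bases in Mir141: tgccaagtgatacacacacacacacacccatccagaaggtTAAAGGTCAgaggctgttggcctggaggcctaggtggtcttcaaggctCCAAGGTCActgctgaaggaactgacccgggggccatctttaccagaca
The Timm10 and Timm8b peaks held the full 9-base sequence TCAAGGTCA. The Samm50 and Phb2 peaks held only the shorter AAGGTCA, 2 times each, preceded by CC and GT in Samm50 and by TA and CC in Phb2.

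The share of import and quality control genes with a peak was above that of genes in general, although it rested on few genes. Of the 36 genes, 8 (22.2%, 95% Wilson interval 11.7 to 38.1%) had a peak within 30 kb of a start site, beside 8.79% of all 22225 protein-coding gene symbols. A peak within 1 kb of a start site, the distance used here for a promoter, was found for 6 genes (16.7%, interval 7.87 to 31.9%), beside 2.09% of all symbols. These intervals cover counting error only, and neither difference was tested. As the genes were chosen with earlier results of these data known, the comparison with all symbols is a description. The linking distance fell in a wide gap. The gene just inside it was Clpp, whose nearest peak was 9.24 kb away, and the gene just outside it was Tomm70a at 36.9 kb. The peak nearest to Tomm70a lay in sequence that is repeated in the genome.

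**Figure D1:**
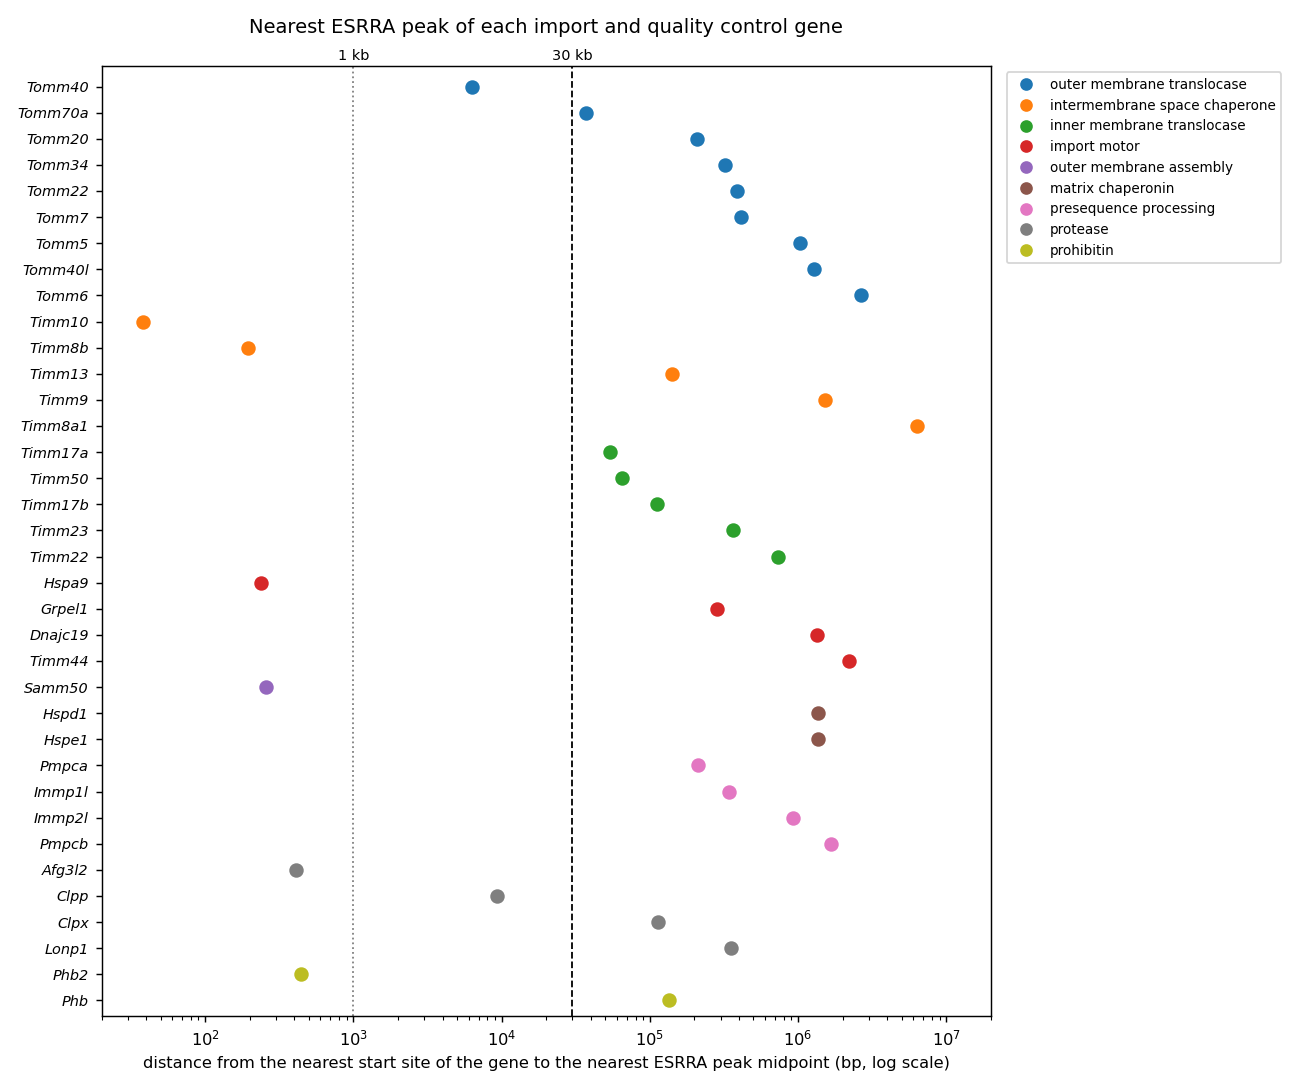
Distance in bp, on a log axis, from the nearest start site of each of the 36 genes to the midpoint of the nearest ESRRA peak, coloured by role, with lines at 1 kb and 30 kb. The plot shows 6 genes left of 1 kb, 2 genes (Tomm40 and Clpp) between 1 and 30 kb and 28 genes beyond 30 kb, of which 10 lie more than 1000 kb from any peak. Within 1000 kb of a peak lay 72.2% of the 36 genes, beside 70.9% of all protein-coding gene symbols (not plotted here).

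By role, the genes with a linked peak were spread over most of the machines. The Tomm genes, all grouped here under the outer membrane translocase, had a linked peak for 1 of 9. The intermembrane space chaperones had one for 2 of 5, the outer membrane assembly gene Samm50 for 1 of 1, and the import motor for 1 of 4. Among the proteases 2 of 4 genes had a linked peak, and among the prohibitins 1 of 2. No peak lay within 30 kb of the 5 inner membrane translocase genes, the 4 presequence processing genes or the 2 matrix chaperonin genes. With so few genes in each role, differences between roles could not be judged, and they were not tested.

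Among the intermembrane space chaperones, which carry hydrophobic precursors between the membranes, Timm10 and Timm8b had a peak at the promoter. Timm10 is the partner of Timm9 in one such chaperone. Its peak (chr2:84667279-84667879) had its midpoint in an untranslated exon 38 bp downstream of one start site and 425 bp downstream of the most upstream one. The TCAAGGTCA shown above lay 18 bp from the midpoint, on the minus strand. No other start site of any gene was within 1 kb of this peak, and the next coding gene, Smtnl1, started 4770 bp away. The nearest other peak was 208.6 kb away.

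The Timm8b peak (chr9:50411512-50412112) lay at a promoter shared by 2 mitochondrial genes. Timm8b, a subunit of the other small chaperone of this space, is transcribed away from Sdhd, which encodes a membrane anchor subunit of succinate dehydrogenase, and their most upstream start sites were 52 bp apart. The midpoint was 194 bp upstream of the Timm8b start site and 142 bp inside Sdhd, in an intron. TCAAGGTCA lay 102 bp from the midpoint, between the midpoint and the Timm8b start site. A peak at this place cannot be assigned to either gene by distance, as the 52 bp between the start sites are far fewer than the 601 bp of a peak. The other members of this role had no peak near them, with distances of 140.0 kb for Timm13, 1512 kb for Timm9 and 6354 kb for Timm8a1. By the linking rule alone, a peak was linked to Timm10 and none to Timm9. Likewise the peak shared with Sdhd was linked to Timm8b, and none to Timm13. As 8.79% of all gene symbols had a linked peak, a partner without one is the usual case.

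Samm50, the core of the machine that inserts barrel proteins into the outer membrane, had a peak (chr15:84022622-84023222) with its midpoint 259 bp downstream of its only start site, in an intron. The 2 half-sites printed above lay 21 and 50 bp from the midpoint, on opposite strands, and neither was preceded by TC. Pnpla3, which started 24676 bp from the midpoint, was the only other coding gene with a start site within 30 kb.

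In the import motor, Hspa9, the matrix chaperone that pulls precursors inward, was linked to 2 peaks. The first (chr18:35113950-35114550) had its midpoint 239 bp upstream of the most upstream start site, between genes, with TCAAGGTCA 24 bp from the midpoint. The second (chr18:35086979-35087579) lay 26.7 kb downstream of that start site, past the end of Hspa9, in an intron of Etf1, a gene for a translation release factor. The nearest Hspa9 start site, inside the gene, was 11685 bp away, whereas an Etf1 start site was 4378 bp away. This peak also held TCAAGGTCA, 2 bp from its midpoint. Its GC content of 35.8% was the lowest of the 11 linked peaks, where the first Hspa9 peak had 62.7%. The remaining motor genes had no peak within 30 kb, with 282.1 kb for the nucleotide exchange factor Grpel1, 1344 kb for the J-protein Dnajc19 and 2220 kb for Timm44, which tethers the motor to the pore.

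Among the proteases, Afg3l2, a subunit of the inner membrane protease that faces the matrix, had a promoter peak (chr18:67608054-67608654) with its midpoint in an intron 407 bp downstream of one start site and 466 bp downstream of the most upstream one. It held 2 half-sites, GGAAGGTCA at 8 bp and TCAAGGTCA at 125 bp from the midpoint. Clpp, the proteolytic core of a matrix protease, was linked to a peak (chr17:57120152-57120752) 9235 bp upstream of its start site, in an intron of the ceramidase gene Acer1 and 1097 bp from an Acer1 start site. That peak held no AAGGTCA, and its closest word, TGAAGTTCA, differed from TCAAGGTCA at 2 of 9 positions. Clpx, the unfoldase that feeds Clpp, had its nearest peak at 113.0 kb, and the matrix protease Lonp1 at 350.6 kb.

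Phb2, which forms the ring-shaped prohibitin scaffold of the inner membrane together with Phb, was the only gene with 3 linked peaks, and they were arranged unlike the promoter peaks above. They lay 1.48 kb (chr6:124663520-124664120), 3.48 kb (chr6:124665524-124666124) and 5.64 kb (chr6:124667676-124668276) downstream of the most upstream start site, with neighbours 2004 and 2152 bp apart. The first 2 were within 1 kb of a Phb2 start site only because the annotation lists start sites inside the gene. Of the 601 bases of these peaks, 488 and 601 lay in annotated exons of any gene, and neither held AAGGTCA. The third lay past the end of Phb2, with its midpoint inside Mir141, 27 bp from the start of that gene and 432 bp from that of Mir200c, a pair of microRNA genes that are well known in epithelial cells. It held the 2 half-sites shown above, 118 and 70 bp from its midpoint. With the most upstream start site of each gene alone, Phb2 no longer had a peak within 1 kb, which left 5 genes (beside 1.73% of all symbols under the same rule). Phb itself had its nearest peak 134.4 kb away.

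Tomm40, the pore-forming subunit of the outer membrane translocase, was the only one of the 9 Tomm genes of the list with a linked peak. That peak was closer to other genes. It (chr7:20281855-20282455) lay 18.6 kb downstream of the most upstream Tomm40 start site and past the end of the gene, in a coding exon of Apoe, the lipid-transport apolipoprotein gene. Of its 601 bases, 598 were coding. Start sites of Apoe and Apoc1 were 1441 and 4148 bp from its midpoint, and the nearest Tomm40 start site, an internal one, was 6334 bp away. It held no AAGGTCA, and its closest word, GCAAGGTCG, differed from TCAAGGTCA at 2 positions. The remaining genes of this role had their nearest peak between 36.9 kb (Tomm70a, a receptor for precursors) and 2661 kb (Tomm6), with 208.9 kb for the receptor Tomm20 and 385.7 kb for Tomm22. For Tomm34, Tomm7, Tomm5 and Tomm40l these distances were 320.5, 410.7, 1036 and 1278 kb.

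**Figure D2:**
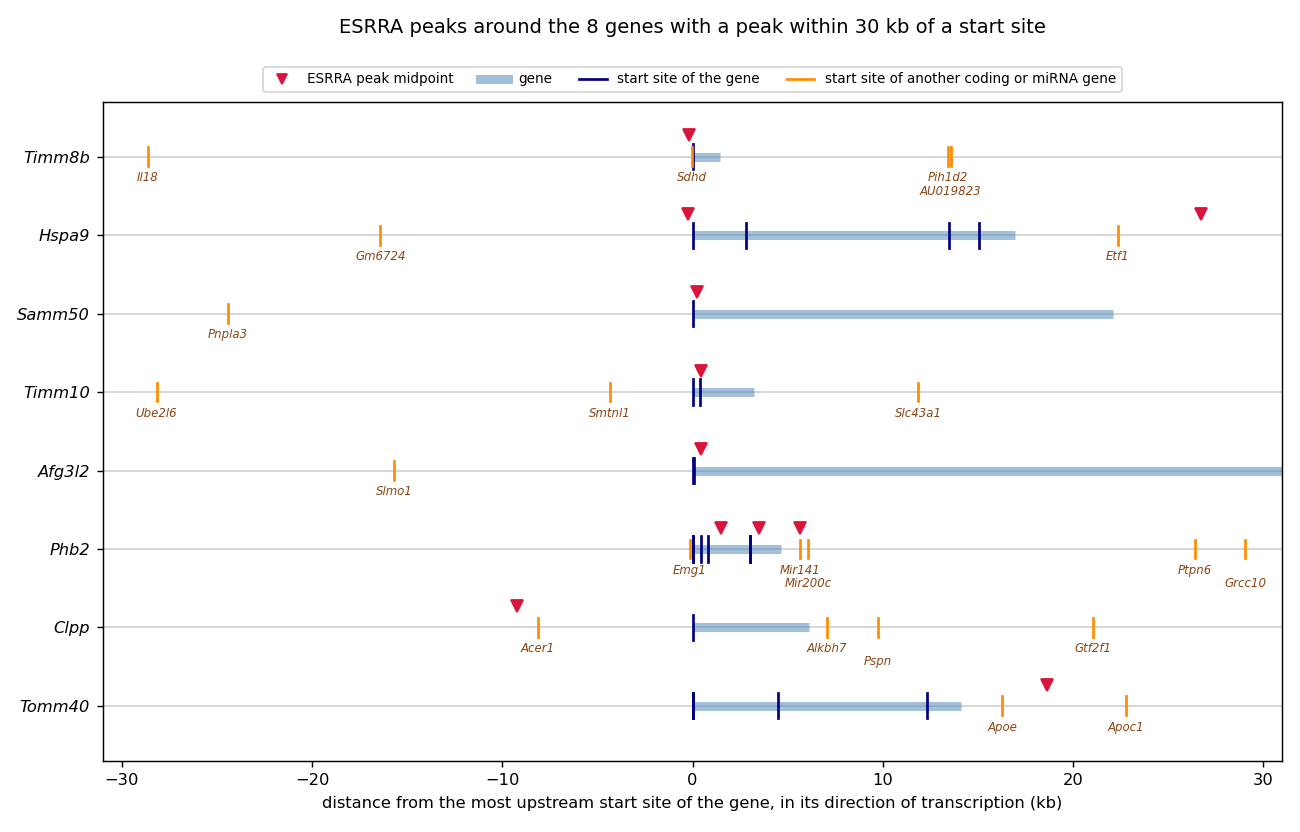
ESRRA peaks (red triangles at the midpoint) within 30 kb of the 8 genes with a linked peak, on an axis of distance in kb from each gene's most upstream start site in its direction of transcription. Blue bars are the genes, dark ticks their start sites, and orange ticks the most upstream start site of other coding and microRNA genes; Timm8b, Hspa9, Samm50, Timm10 and Afg3l2 have a peak within 466 bp of that start, whereas the peaks of Phb2, Clpp and Tomm40 lie 1.48 kb or more away.

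Among these 11 peaks, the half-site was more frequent close to the most upstream start site of the linked gene. All 5 peaks within 1 kb of a most upstream start site held AAGGTCA, and 4 of them held TCAAGGTCA. Of the other 6, 2 held AAGGTCA and 1 held TCAAGGTCA. This division was made after the values were seen and is a description. Peaks in general were divided only by the wider rule of any start site of any gene, and by that rule their shares differed little. By the same wider rule, 8 of the linked peaks were near a start site, of which 4 held TCAAGGTCA and 6 held AAGGTCA. Of the 469 peaks in single-copy sequence within 1 kb of a start site, 17.5% held TCAAGGTCA and 52.0% held AAGGTCA. Over all 1315 peaks in single-copy sequence these shares were 17.7 and 51.4%. In all, 5 of the 11 linked peaks (45.5%, 95% Wilson interval 21.3 to 72.0%) held TCAAGGTCA, beside 14.3% of the 1639 peaks and 17.7% of the 1315 peaks in single-copy sequence, and 7 (63.6%, interval 35.4 to 84.8%) held AAGGTCA, beside 44.0 and 51.4%. No TCAAGGTCA was found in 18 flanking windows of the same width centred 2 kb from the linked peaks, which allows a share of up to 16.7%, and 1.59% of 3074 such windows around all peaks held it. The difference between the linked peaks and the rest was not tested. These intervals treat the 11 peaks as independent, although 3 were linked to Phb2 and 2 to Hspa9. Every linked peak was in single-copy sequence, and its 24-base words occurred 1 time in the genome at the median. The peaks nearest to Tomm70a, Timm44, Timm8a1, Immp1l and Timm9, which were not linked, were not in single-copy sequence.

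**Figure D3:**
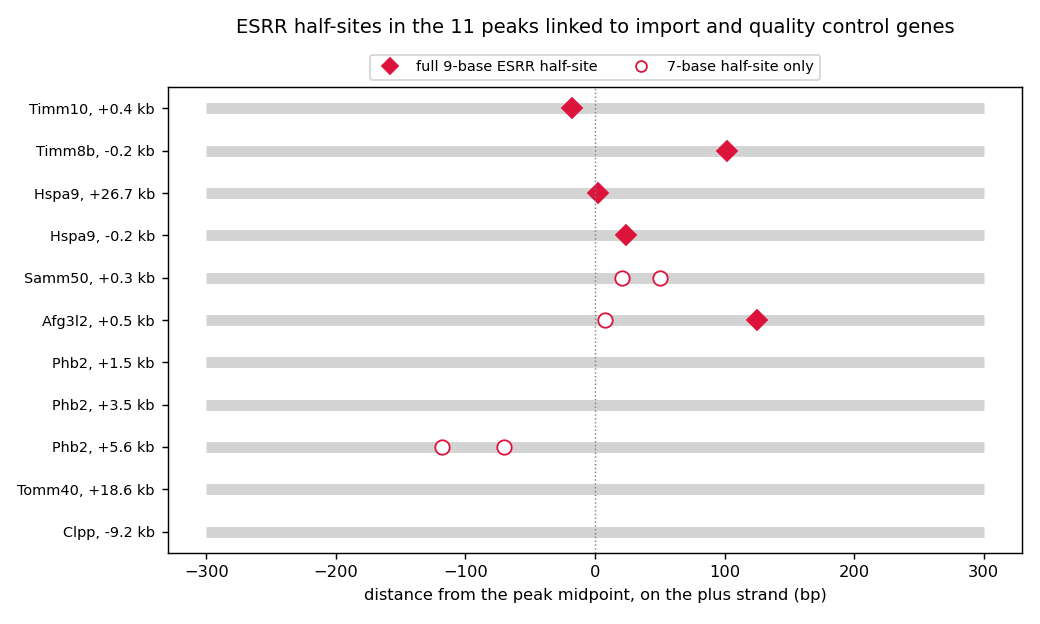
Position of each ESRR half-site, in bp from the peak midpoint on the plus strand, in the 11 linked peaks (grey bars, 601 bp), named by gene and by distance from its most upstream start site. Filled diamonds are the full 9-base sequence and open circles the 7-base one alone; of the 10 sites 6 lie within 50 bp of the midpoint, and 4 peaks, at Phb2 (2 peaks), Tomm40 and Clpp, have none.

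Half-sites were also looked for at genes without a peak, in the 601 bases centred on the most upstream start site. TCAAGGTCA was found at Timm8b and Hspa9, both with a peak there, and at 0 of the 28 genes without a linked peak, which allows a share of up to 10.7%. It was present at 0.756% of the 22367 annotated protein-coding genes, so that 0 of 28 does not set these genes apart. Over all genes, 19 of the 169 with TCAAGGTCA (11.2%) had a peak within 1 kb, beside 446 of the 22198 without it (2.01%). Most genes with TCAAGGTCA at the start site thus had no peak there. AAGGTCA, in contrast, was found at 10 of the 36 genes, of which 3 (Timm8b, Samm50 and Hspa9) had a peak within 1 kb, 1 (Tomm40) had a more distant linked peak and 6 had none. Over all genes, 7.82% of these windows held AAGGTCA, and 105 of the 1749 genes with it had a peak within 1 kb, beside 360 of the 20618 without it (1.75%).

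The half-sites at the 6 genes without a peak are printed to set them beside those in the peaks, in the same form as above. Hspd1 and Hspe1, which encode the 2 parts of the matrix chaperonin and are transcribed away from each other, share 1 site, in an untranslated exon of Hspd1. Those of Dnajc19 and Timm17a lay in introns and those of Timm23 and Timm44 reached into untranslated exons.
Dnajc19, chr3:33980006-33980094: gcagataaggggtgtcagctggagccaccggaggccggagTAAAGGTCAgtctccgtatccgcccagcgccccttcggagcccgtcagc
Hspd1 and Hspe1, chr1:55144932-55144960: tcccgtgggtGAAAGGTCAagtggcgtca
Timm17a, chr1:137210042-137210130: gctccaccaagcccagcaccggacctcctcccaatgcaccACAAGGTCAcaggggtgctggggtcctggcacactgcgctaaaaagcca
Timm23, chr14:33015047-33015075: ttcaccacgcTGACCTTCCgggcgccggc
Timm44, chr8:4275894-4275922: agagcccgtgTGACCTTCCtgcgtcgctc
None of these was preceded by TC, while 5 of the 10 sites in linked peaks were. The windows differed, as these sites lay around the most upstream start site and the others anywhere in a peak. In the start-site windows of all 36 genes, TCAAGGTCA was found at Timm8b and Hspa9 only. The 2 counts are therefore a description. The 2 sets overlapped all the same, since TAAAGGTCA occurred both at Dnajc19, which had no peak within 1344 kb, and in the peak at Mir141, and GGAAGGTCA both at Timm23 and Timm44 and in the Afg3l2 peak.

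The nearest peaks of the inner membrane pore, processing and chaperonin genes lay beyond 30 kb, as they did for most genes. Timm23 and Timm50, the channel and receptor of the main inner membrane translocase, had their nearest peaks at 362.0 and 64.7 kb, and its partner subunits Timm17a and Timm17b at 53.8 and 112.0 kb. Timm22, the channel for carrier proteins, was 727.1 kb from a peak. The subunits of the peptidase that removes targeting sequences, Pmpca and Pmpcb, were 210.0 and 1677 kb away, and the inner membrane peptidase genes Immp1l and Immp2l 342.8 and 926.8 kb. The chaperonin genes Hspd1 and Hspe1 were each 1372 kb from the nearest peak. The absence of a peak says only that no region passed the authors' threshold there.

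A further list of 31 annotated genes of import, folding, proteolysis and cristae structure also had shares above those of all genes, but no TCAAGGTCA in its peaks. Of these, 5 (16.1%, 95% Wilson interval 7.09 to 32.6%) had a peak within 30 kb and 4 (12.9%, interval 5.13 to 28.9%) within 1 kb, beside the 8.79 and 2.09% given above. At 30 kb the interval included the share of all symbols. This list, too, was chosen with earlier results of these data known. The 4 promoter peaks all had their midpoint downstream of the start site, 80 bp for Chchd3, which helps to shape the cristae, 192 bp for Mtx2, a partner of Samm50, 193 bp for Oxa1l, which inserts proteins into the inner membrane, and 296 bp for Chchd4, the oxidative folding enzyme of the intermembrane space. None of the 4 held TCAAGGTCA. The Mtx2 and Chchd4 peaks held CCAAGGTCA, 209 and 29 bp from the midpoint, and the Chchd3 and Oxa1l peaks held no AAGGTCA. The fifth gene, Timm8a2, was linked to a peak 26498 bp upstream of its start site, in an intron of Ubac2, which held CGAAGGTCA.

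Other mitochondrial gene families had shares on both sides of these. Of 36 complex I subunit genes, 15 (41.7%, 95% Wilson interval 27.1 to 57.8%) had a peak within 30 kb and 13 (36.1%, interval 22.5 to 52.4%) within 1 kb. For 76 mitochondrial ribosomal protein genes these were 13 (17.1%) and 5 (6.58%), and for 44 carrier genes of the Slc25 family 8 (18.2%) and 3 (6.82%). At both distances the Wilson interval of the 36 import and quality control genes overlapped that of each of these families, and no difference was tested. The families were likewise chosen with earlier results of these data known.

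**Figure D4:**
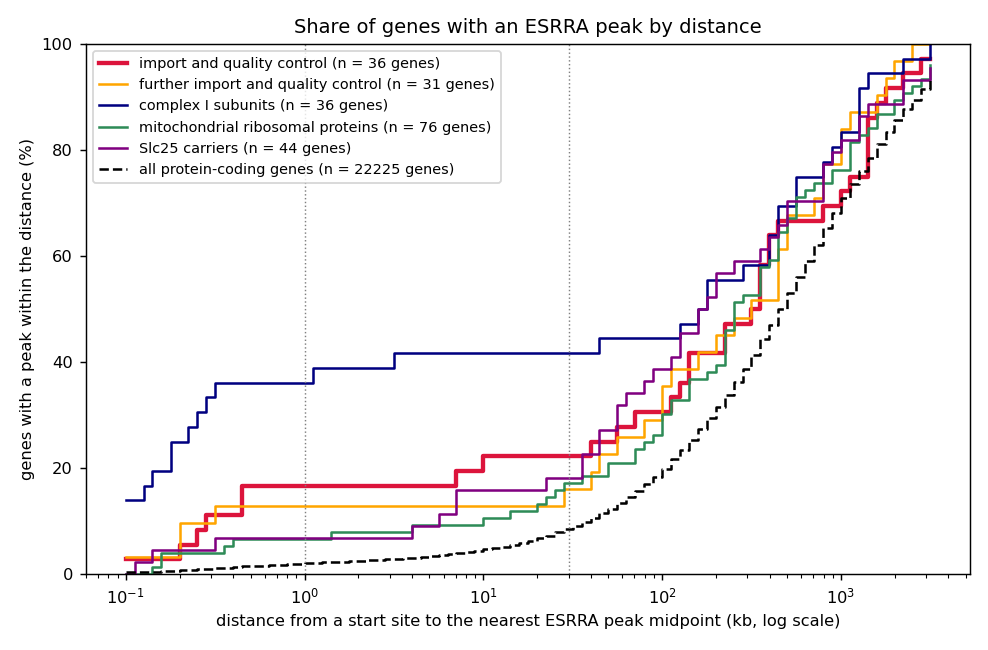
Share of genes in percent with an ESRRA peak within a given distance (kb, log axis) of a start site, for the 36 import and quality control genes (thick red line), the further list, complex I subunits, mitochondrial ribosomal proteins, Slc25 carriers and all protein-coding genes (dashed). At 1 kb the red line stands at 16.7%, between the 36.1% of complex I subunits and the 2.09% of all genes, and at 30 kb at 22.2%.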

How the data were processed

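ESRRA ChIP-seq libraries of duodenal villus cells (2 ChIP, 1 input) were grouped by their titles. As described in the study's methods and the submitters' processing notes, reads were aligned to mm9 with Bowtie2 (2.2.6), both ChIP libraries were merged with SAMtools (0.1.19), and peaks were called with MACS2 at a p-value of 1e-05. The MACS2 version is not given in the sources used here. The deposited values were peak starts and ends in bp, with no score, so that read depth, peak height and differences between libraries were not available to these comparisons, and a peak near the threshold counted as a strong one.

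Distances were measured from peak midpoints to GENCODE M1 start sites on NCBI build 37, which is mm9. Gene records sharing a symbol were counted once in shares of genes. A peak was single-copy where its 24-base words occurred at most 10 times in the genome at the median. Sequences were matched exactly on both strands. Wilson intervals (95%, scipy 1.17.1) cover counting error, and no set test was run. Limits for a count of 0 are 3 counts of the total. Functions were tested on planted data. The genes named were all members, the further genes with a peak, and the genes nearest to linked peaks; other neighbours named on the way were chosen after the values were seen. The members and lists were chosen with earlier results of these data known. Of the further list, Timm21 and Timm29 were not matched in the annotation and were left out.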

Additional observations from a re-analysis of the deposited data

How the results depend on the processing

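Of 30 alternatives, 25 kept their count within 1.5 times that reported. The linked genes fell from 8 to 5 and the linked peaks from 11 to 6 when only peaks whose nearest start site belonged to the member were kept, which dropped Timm8b (nearest to Sdhd), Tomm40 (Apoe) and Clpp (Acer1). The share of all gene symbols under that rule was not computed, so these 5 genes cannot be set beside a background. With a window of 100 kb the linked peaks rose to 17 and the further genes from 5 to 11, as a wider window must, while 19.8% of all gene symbols had a peak at that distance. Within 100 bases either side of the midpoint of the linked peaks, TCAAGGTCA was found in 3 peaks in place of 5. Start sites of coding transcripts only, the peak edge in place of its midpoint, and single-copy peaks only changed none of the gene or peak counts to which they were applied. A stricter threshold and leaving out a ChIP replicate could not be run, since the list has neither scores nor peaks for each library. No paired analysis was possible because the list of peaks was called on the pooled ChIP reads. The unknown depth limits every count.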

Other observations

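Sequences of other promoter-binding factors were counted in the 601 bases centred on the most upstream start site of each gene, on both strands. CCGGAAG, a core of sites for ETS factors, was found at 18 of the 36 import and quality control genes (50.0%) and at 15.6% of all 22367 annotated protein-coding genes. It was present at 4 of the 6 genes with a peak within 1 kb (Timm10, Phb2, Timm8b and Hspa9), at Clpp, and at 13 of the 28 without a linked peak (46.4%). GCATGCG, a core of the NRF1 site, was found at 7 of the 36 (19.4%), beside 6.03% of all genes. Those 7 were Hspd1, Hspe1, Tomm7, Grpel1, Clpx, Timm13 and Immp2l, none of which had a linked ESRRA peak. Of the 29 genes without GCATGCG, 6 had a peak within 1 kb. Over all protein-coding genes the order was the other way, with a peak within 1 kb at 39 of 1348 genes with GCATGCG (2.89%) and at 426 of 21019 without it (2.03%), so the counts among the 36 genes are given as a description. Hspd1 and Hspe1 share their promoter and hence these sites, so that the 7 genes are 6 places in the genome. GGGCGG, a core of SP1 sites, was found at 30 of the 36 genes and at 54.9% of all genes, and CCAAT at 19 of the 36 and at 53.4% of all genes. No difference was tested.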
